A study of Homo sapiens with 9 samples.

Results

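Glypicans and syndecans are the main families of heparan sulfate proteoglycans on the surface of animal cells. Their 10 human genes, GPC1 to GPC6 and SDC1 to SDC4, were taken by gene symbol from gene expression tables of 25593 loci. No member was kept or left out by its values, but the families were chosen with earlier results of these data known. Each of the 10 symbols had a single row, and all 10 passed the filter on low values that left 13216 genes for testing.

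The 9 libraries came from cultures of neural crest-like cells that were obtained from H9 human embryonic stem cells, an established line. For 6 days all cells were differentiated in defined medium that held 10 µM SB431542, which blocks signalling by the TGF-β, Activin and Nodal receptors. CD271-high, CD73-negative cells were sorted, per the growth protocol (the cell type label gives both markers as positive), and expanded on fibronectin under 5% oxygen. Group F received FGF2 at 5 to 10 ng/ml. Group FSB received FGF2 and SB431542 at 3 to 5 µM. Group F_FSB was expanded in FSB for 4 passages, then kept in F for 3 more, while the rest of those cells stayed in FSB. All cultures were harvested at passage 6 to 7. Each group had 3 libraries, which the design text calls biological replicates. The labels do not say whether they came from separate sorts, so p-values may measure only the spread between cultures of the same origin. All 9 cultures derive from the same line, and cells from before expansion were not analysed here. The words rose and fell compare groups, not times.

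Heparan sulfate proteoglycans are core proteins that carry long sulfated sugar chains. Glypicans are tied to the outer membrane by a lipid anchor, and syndecans cross the membrane and bind cytoskeletal and scaffold proteins inside the cell. The chains hold growth factors near their receptors, and FGF2, present in all 3 media, needs heparan sulfate to signal efficiently through its receptors. Glypicans also shape the response to WNT, Hedgehog and BMP ligands, and several are linked to inherited disorders of skeletal growth.

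Of 8 neural crest markers, 5 were detected (1 FPKM or more in at least 3 libraries). FPKM scale fragments to the length of the transcript and the fragments of the library, so levels of different genes can be set side by side. The summed crest marker level was 86.3 to 131 FPKM for F, 351 to 389 in FSB and 90.7 to 94.8 in F_FSB, with FOXD3 below 1 FPKM in all 9 libraries. TFAP2A, TWIST1, NGFR and ETS1 had higher means in FSB than in F, while SOX9 had similar means (32.5 FPKM in F and 34.15 in FSB). All 7 mesenchymal markers were detected, with sums of 9263 to 10205 FPKM for F, 4201 to 4872 in FSB and 8798 to 12205 in F_FSB. These sums mostly follow the most abundant genes. Mean FPKM in F and FSB was 3941 and 176 for COL1A1, 2470 and 771 for COL1A2 and 118 and 50.1 for PDGFRA. It was 1183 and 1276 for COL3A1, 1881 and 1956 for VIM, 161 and 177 for PRRX1 and 82.5 and 91.1 for PDGFRB. The means of these last genes were not lower in FSB. The part that this difference in markers plays in the results was not tested, and in bulk samples fewer cells of a type and less RNA per cell cannot be told apart. The 6 endoderm and liver markers and the 5 central neural progenitor markers were below 1 FPKM everywhere, with FOXA2 and OTX2 at 0. Detected were 4 of 7 neuron, 3 of 6 endothelial, 2 of 5 blood and 2 of 5 pluripotent markers. The pluripotent sum was 1.36 to 6.33 FPKM for F, 82.35 to 96.5 in FSB and at most 4.13 in F_FSB. The blood sum was 18.8 to 29.4 FPKM for F, at most 2.9996 in FSB and 11.7 to 23.4 in F_FSB. Neuron sums of F and FSB overlapped (58.4 to 106 and 94.7 to 139 FPKM). So did endothelial sums (2.87 to 6.01 and 5.47 to 6.12 FPKM). By the root mean square log2 difference over all genes tested, FSB replicates 1 and 2 were the closest pair of libraries (0.329). F replicate 1 was closer to F_FSB replicate 1 (0.437) than to the other F libraries (0.574 and 0.576). Fragment counts are not in the tables. Judged from the widths of Cufflinks' intervals, F_FSB replicate 2 had a relative depth of 63.5% and the other libraries 83.8% to 100%, where FSB replicate 1 is 100%.

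With the inhibitor, 3 of the 10 genes were higher and 1 was lower. GPC1, GPC5 and SDC3 rose in FSB over F, and GPC6 fell (limma on log2(FPKM + 1), with p adjusted over all genes by Benjamini-Hochberg and a threshold of 0.05). That is close to the share of all genes tested that passed, 41.9% in either direction, 28.5% higher and 13.4% lower. In F_FSB against FSB, GPC6 rose while GPC5 and SDC3 fell, against 41.8% of all genes, 13.7% higher and 28.2% lower. GPC5 passed the filter on low values only through FSB, so its difference was bound to be large in both comparisons. Its calls within these counts are therefore no support for a change in the families. Between F_FSB and F, none of the 10 passed, none had an unadjusted p below 0.05, and 0.00757% of all genes passed. Of all 13216 genes, 1195 had an unadjusted p below 0.05 in that comparison (limma). The groups' libraries did not overlap for 6 members between FSB and F (GPC1, GPC2, GPC3, GPC5, GPC6 and SDC3; 57.9% of all genes), for 4 between F_FSB and FSB (GPC2, GPC5, GPC6 and SDC3; 55.8%) and for 0 between F_FSB and F (13.0%). Without F replicate 1, 5 members rose in FSB against F, without F replicate 2 none did, and without F replicate 3 or FSB replicate 2, 1 did. The count of members that fell was 0 when F replicate 1, F replicate 3 or any FSB library was left out. In F_FSB against FSB, 1 fell without FSB replicate 1 or 2 or F_FSB replicate 2. FSB is the common group of the first pair of comparisons, so their opposite signs are not independent. The median log2 change of the 10 was 0.76 in FSB against F, where that of all genes was 0.14. It was -0.43 in F_FSB against FSB, where that of all genes was -0.13, and 0.06 in F_FSB against F. After scaling by median ratios the median of all genes in FSB against F was 0.0075, and the share of calls that were higher went from 68.0% to 50.4%. Relative to the median of all genes, the changes in FSB against F were 0.60 for GPC1, 1.52 for GPC5, -1.04 for GPC6 and 1.05 for SDC3.

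**Figure D1:**
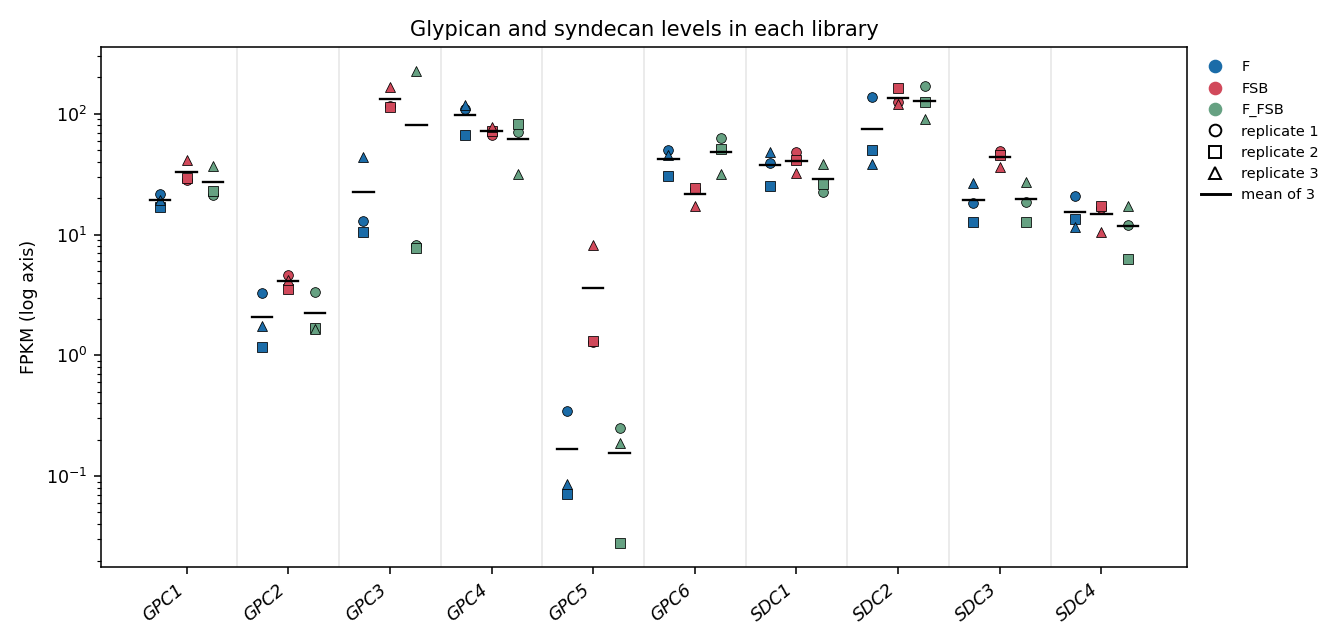
FPKM of the 10 glypican and syndecan genes in each of the 9 libraries (log axis). Colours are groups, marker shapes are replicate numbers and bars are means of 3. GPC3 lies between 114 and 167 FPKM in FSB and at 8.25, 7.77 and 226 in F_FSB, and GPC5 is above 1 FPKM in the FSB libraries only.

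By mean level, GPC4 and SDC2 led in F and SDC2 and GPC3 led in FSB. The F libraries were uneven for SDC2, which in F replicate 3 (38.8 FPKM) came behind GPC4, SDC1, GPC6 and GPC3. In F the order of mean FPKM was GPC4 (98.5), SDC2 (75.3), GPC6 (42.0), SDC1 (37.8), GPC3 (22.5), GPC1 (19.2), SDC3 (19.2), SDC4 (15.3), GPC2 (2.06) and GPC5 (0.167). Each neighbour in that order overlapped the next from GPC4 down to SDC4, so only the step to GPC2 and the step to GPC5 exceeded the spread of libraries. In FSB the order was SDC2 (136), GPC3 (133), GPC4 (71.7), SDC3 (43.7), SDC1 (40.8), GPC1 (33.2), GPC6 (21.8), SDC4 (14.8), GPC2 (4.10) and GPC5 (3.62). There the libraries of GPC3 and GPC4, GPC4 and SDC3, GPC1 and GPC6, GPC6 and SDC4, and SDC4 and GPC2 did not overlap. In F_FSB the order began with SDC2 (129), GPC3 (80.8) and GPC4 (61.5) and ended with SDC4 (11.8), GPC2 (2.24) and GPC5 (0.156). As in F, neighbours overlapped down to SDC4.

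The promoters of the 3 genes that passed in both comparisons with FSB are shown because they rose and fell with the inhibitor in different directions. Of these genes, GPC5 passed the filter on low values only through FSB. RefSeq's table (GRCh38.p14) held entries for 8 of the 10 genes. GPC3 and SDC2 had no entry. The 250 bases before each start were matched to GRCh37, where each occurred once, and are printed 5′ to 3′ on the gene's strand. Capitals mark the GC box, the letters GGGCGG or CCGCCC on the other strand, a motif bound by SP-family factors. The GPC5 window is chr13:92050625-92050874 on the plus strand and the SDC3 window chr1:31381606-31381855 on the minus strand, both outside annotated genes in GENCODE v44lift37. The GPC6 window is chr13:93878810-93879059 on the plus strand, and 195 of its bases lie in an exon of the unnamed gene ENSG00000278177.
GPC5: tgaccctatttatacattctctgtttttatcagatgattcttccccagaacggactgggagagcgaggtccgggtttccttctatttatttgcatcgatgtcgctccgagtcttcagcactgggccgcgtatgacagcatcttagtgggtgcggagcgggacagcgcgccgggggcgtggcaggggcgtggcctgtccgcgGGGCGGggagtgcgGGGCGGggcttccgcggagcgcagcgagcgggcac
GPC6: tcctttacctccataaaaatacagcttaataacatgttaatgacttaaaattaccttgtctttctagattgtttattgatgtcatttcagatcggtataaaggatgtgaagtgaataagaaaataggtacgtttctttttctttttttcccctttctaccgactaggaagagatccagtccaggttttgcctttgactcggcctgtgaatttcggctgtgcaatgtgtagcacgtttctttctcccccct
SDC3: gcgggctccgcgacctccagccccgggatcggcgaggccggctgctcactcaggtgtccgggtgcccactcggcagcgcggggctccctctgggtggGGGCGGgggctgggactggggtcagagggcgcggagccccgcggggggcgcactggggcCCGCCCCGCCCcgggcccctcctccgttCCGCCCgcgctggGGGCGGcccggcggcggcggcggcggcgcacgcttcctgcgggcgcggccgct
The GC box occurred 2 times in the GPC5 window, 0 times in GPC6 and 5 times in SDC3, against 42.6% of 35116 promoter windows with at least 1. GC content was 62.4%, 37.6% and 83.6%, where the median of all windows was 58%. The GPC6 window had the lowest GC content of the 9 entries for members, the others lying between 62.4% and 84%. The TATA box letters TATAAA (or TTTATA) were found once each in GPC5 and GPC6 and not in SDC3 (10.7% of all windows). The letters CAGAC (or GTCTG), the core that SMAD proteins bind, were in none of the 3 windows (38.0% of all windows). These matches describe letters, not binding.

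GPC3 (chromosome X, 132669773 to 133119673, GRCh37), an inhibitor of Hedgehog signalling whose loss causes an overgrowth syndrome, had the widest range of group means of the 10, and its F_FSB libraries ran below all F and above all FSB libraries. Its level was 12.9, 10.6 and 44.2 FPKM in the F libraries, 117, 114 and 167 in FSB, and 8.25, 7.77 and 226 in F_FSB. All FSB libraries were above all F libraries. F_FSB replicates 1 and 2 were below every F library, while F_FSB replicate 3 was above every FSB library. The FSB mean was 5.89 times the F mean (133 ± 30.0 against 22.5 ± 18.8 FPKM, SD, n = 3). The log2 change was 2.76 (SE 1.18) and did not pass (limma, adjusted p = 0.0923). The call changed with the libraries in the fit. Without F_FSB replicate 3, GPC3 was higher in FSB than in F (limma, adjusted p = 0.00417) and lower in F_FSB than in FSB, by -3.87 (adjusted p = 0.00275). With it, the change in F_FSB against FSB was -2.32 (limma, adjusted p = 0.149). It also passed in FSB against F when only the libraries of those groups were fitted (limma, adjusted p = 0.00756).

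Of 3 genes chosen after their values were seen, none was near its FSB level in F_FSB replicate 3. LIN28A, an RNA-binding protein of early cells, was at 0.0239 FPKM there and at 74.3 to 85.4 in FSB, and NGFR, which encodes CD271, was at 7.26 against 104 to 134. COL1A1, the main chain of type I collagen, was at 4645 FPKM there and at 156 to 207 in FSB. Genes picked in this way do not describe the library as a whole. MSX1, ENPP2 and SLIT3, the genes closest in profile to GPC3 (below), were at 13.4, 15.3 and 67.1 FPKM in F_FSB replicate 3. Their FSB libraries ran from 8.85 to 13.1, 7.36 to 18.7 and 41.0 to 57.4 FPKM. Because MSX1, ENPP2 and SLIT3 were picked for likeness to GPC3 over these same libraries, their high levels there were set by the choice. Over all genes tested this library lay 0.569 and 0.723 from the other F_FSB libraries and 0.919 to 0.958 from FSB (root mean square log2 difference). Over the 10 glypicans and syndecans the order was the opposite, with 1.63 and 1.68 from its own group and 0.725 to 1.14 from FSB. Most of the distance from its own group came from GPC3 alone, at 226 FPKM against 8.25 and 7.77. GPC3 was also the gene that singled out this library, so the order is not a trait of the 10 genes as a set. Distances without GPC3 were not computed. F_FSB replicate 3 also held the lowest GPC4 of all 9 libraries (31.5 FPKM) and the lowest GPC6 of its group.

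GPC4 (chromosome X, 132435064 to 132549205) is the direct neighbour of GPC3, with 121 kb and no other listed locus between them, and its loss causes a syndrome of the face and digits. Its level was 111, 66.7 and 118 FPKM for F, 66.2, 71.7 and 77.4 in FSB, and 71.3, 81.6 and 31.5 in F_FSB. The groups overlapped in all 3 comparisons. The log2 change in FSB against F was -0.41 with a 95% interval of -1.22 to 0.40, and it did not pass (limma, adjusted p = 0.380). The ratio of GPC3 to GPC4 was 0.117, 0.158 and 0.374 in F, 1.76, 1.59 and 2.16 in FSB, and 0.116, 0.0951 and 7.17 in F_FSB. GPC4 was thus the more abundant of the neighbours in every F library and GPC3 in every FSB library.

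GPC6 (chromosome 13, 93879078 to 95060274), a glypican whose loss causes a short-limbed skeletal disorder, was the member that fell with the inhibitor. Its level was 49.8, 30.5 and 45.7 FPKM for F, 23.6, 24.4 and 17.4 in FSB, and 62.8, 51.0 and 32.0 in F_FSB. All FSB libraries were below all others, and F and F_FSB overlapped. The FSB mean was 0.519 of the F mean (21.8 ± 3.84 against 42.0 ± 10.1 FPKM, SD, n = 3). GPC6 fell by 0.90 on the log2 scale in FSB against F (SE 0.27, limma, adjusted p = 0.0304) and rose by 1.08 in F_FSB against FSB (limma, adjusted p = 0.0143). The rise in F_FSB passed under all 17 alternatives run (limma, adjusted p 0.00578 to 0.0487). The fall in FSB was lost without F replicate 1 or 3 (limma, adjusted p = 0.0871 and 0.0842) and without FSB replicate 1, 2 or 3 (0.0614, 0.0567 and 0.0931).

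GPC5 (chromosome 13, 92050935 to 93519490) lies before GPC6 with 360 kb and no other listed locus between them, and the neighbours moved in opposite directions. GPC5 was at 0.344, 0.0714 and 0.0857 FPKM for F, 1.30, 1.32 and 8.24 in FSB, and 0.252, 0.0279 and 0.187 in F_FSB. It exceeded 1 FPKM in the FSB libraries only and passed the filter on low values through them, so its difference was bound to be large, and FSB replicate 3 stood above the other FSB libraries. GPC5 rose by 1.66 in FSB against F (SE 0.49, limma, adjusted p = 0.0268) and fell by 1.67 in F_FSB against FSB (limma, adjusted p = 0.0256). The rise was lost without F replicate 2 or 3 (limma, adjusted p = 0.0717 and 0.0684). The fall was lost without F_FSB replicate 1, 2 or 3 (0.0522, 0.0633 and 0.0576). Without FSB replicate 3 the rise was 0.99 and the change in F_FSB against FSB -1.003. Cufflinks' own intervals on GPC5 were wide, reaching 11.9% to 100% of the value to each side.

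GPC1 (chromosome 2, 241375115 to 241407495), a broadly expressed glypican that binds FGF2 through its chains, rose with the inhibitor. It was at 21.5, 16.9 and 19.3 FPKM for F, 28.5, 29.4 and 41.5 in FSB, and 21.2, 23.1 and 36.7 in F_FSB. All FSB libraries were above all F libraries, and F_FSB overlapped both groups. The log2 change in FSB against F was 0.74 (SE 0.22, limma, adjusted p = 0.0288), and in F_FSB against FSB it was -0.30 (limma, adjusted p = 0.302). The rise missed the threshold after scaling by median ratios, by quantiles or to the same sum (limma, adjusted p = 0.0734, 0.0694 and 0.0765), and without F replicate 2, F replicate 3 or FSB replicate 2 or 3 (0.0879, 0.0652, 0.0533 and 0.0864). The locus overlaps LOC100505507, listed at up to 15.2 FPKM, and no source used here states whether the counting used strand. Part of the GPC1 signal is therefore uncertain. The ratio of GPC1 to GPC6 was 0.423 to 0.552 in F, 1.21 to 2.39 in FSB and 0.338, 0.453 and 1.15 in F_FSB.

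GPC2 (chromosome 7, 99767229 to 99774990), a glypican of the developing nervous system, was low throughout. It was at 3.26, 1.17 and 1.75 FPKM for F, 4.59, 3.53 and 4.19 in FSB, and 3.37, 1.70 and 1.66 in F_FSB. Every FSB library was above every library of the other groups. The log2 change was 0.79 in FSB against F and -0.69 in F_FSB against FSB, just outside the threshold (limma, adjusted p = 0.0503 and 0.0779). Without F replicate 1, the highest F library, both passed (limma, adjusted p = 0.0149 and 0.0393). Without F_FSB replicate 1 both passed as well (0.0353 and 0.0320).

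SDC3 (chromosome 1, 31342313 to 31381480), the syndecan of neural tissue and growing limb cartilage, was the only syndecan to pass in FSB against F and in F_FSB against FSB. Its level was 18.4, 12.8 and 26.5 FPKM for F, 49.3, 45.4 and 36.4 in FSB, and 18.7, 12.7 and 27.4 in F_FSB. All FSB libraries were above all others, and F and F_FSB covered nearly the same range. The FSB mean was 2.27 times the F mean (43.7 ± 6.60 against 19.2 ± 6.89 FPKM, SD, n = 3). SDC3 rose by 1.19 in FSB against F (SE 0.31, limma, adjusted p = 0.0171) and fell by 1.17 in F_FSB against FSB (limma, adjusted p = 0.0177). The change between F_FSB and F was 0.02, with a 95% interval of -0.70 to 0.74. The rise was lost without F replicate 2 or FSB replicate 1 or 2 (limma, adjusted p = 0.0536, 0.0595 and 0.0552), and the fall without FSB replicate 1 or 2 (0.0615 and 0.0560).

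SDC1 (chromosome 2, 20400558 to 20425194), the syndecan best known from epithelia and plasma cells, was present in all libraries although 6 of 7 epithelial markers were below 1 FPKM everywhere. It was at 39.1, 25.5 and 48.7 FPKM for F, 48.1, 41.6 and 32.7 in FSB, and 22.7, 26.4 and 38.2 in F_FSB. The groups overlapped, and the log2 change in FSB against F was 0.14 with a 95% interval of -0.48 to 0.76 (limma, adjusted p = 0.707). Set against it within each library, SDC3 was at 0.469 to 0.544 of SDC1 in F, 1.03 to 1.12 in FSB and 0.480 to 0.823 in F_FSB. SDC3 was thus below SDC1 in every F and F_FSB library and slightly above it in all 3 FSB libraries. There the levels were nearly equal, and Cufflinks' intervals of both genes overlapped in each FSB library.

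SDC2 (chromosome 8, 97505882 to 97624037), the main syndecan of mesenchymal cells, was the most abundant syndecan in 8 of 9 libraries, the exception being F replicate 3 with more SDC1. It was at 137, 50.5 and 38.8 FPKM for F, 126, 162 and 121 in FSB, and 169, 126 and 91.3 in F_FSB. F replicate 1 lay among the FSB libraries and the other F libraries below all of them. The log2 change in FSB against F was 1.05 (SE 0.44) and did not pass (limma, adjusted p = 0.0853). Without F replicate 1 it was 1.59 and passed (limma, adjusted p = 0.00482). In F_FSB against FSB the log2 change was -0.11 with a 95% interval of -1.12 to 0.89, and it did not pass (limma, adjusted p = 0.856). The data thus allow a change of either sign inside that interval.

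SDC4 (chromosome 20, 43953928 to 43977064), a syndecan of focal adhesions, had the narrowest range of group means. It was at 20.9, 13.5 and 11.6 FPKM for F, 16.7, 17.3 and 10.4 in FSB, and 11.9, 6.23 and 17.2 in F_FSB. The groups overlapped in all comparisons, and the log2 change in FSB against F was -0.04 with a 95% interval of -0.86 to 0.79 (limma, adjusted p = 0.949). With 3 libraries a group, the data thus allow a change of either sign inside that interval.

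**Figure D2:**
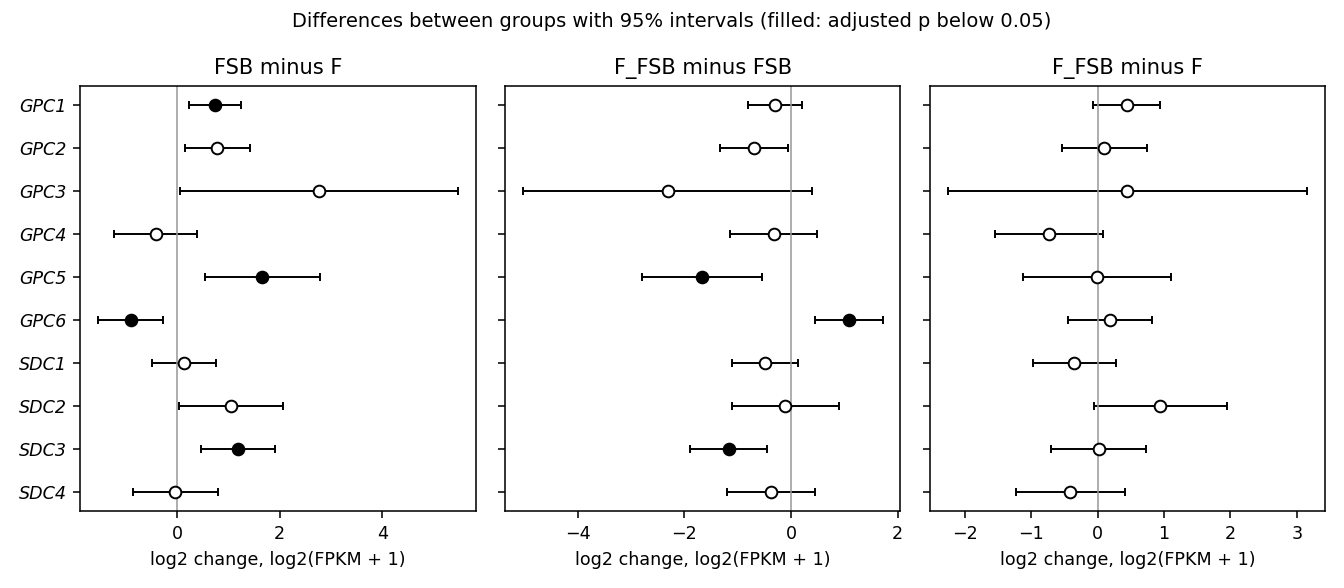
Log2 changes on the log2(FPKM + 1) scale of the 10 genes in the 3 comparisons, with 95% intervals from limma. Filled points have a adjusted p below 0.05. GPC6 and SDC3 lie on opposite sides of 0, each with its sign turned between the left and the middle panel, and the interval of GPC3 is the widest in each panel.

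Between F_FSB and F, which shared the final medium, the largest changes were in SDC2 (0.94) and GPC4 (-0.74), both with a adjusted p of 0.566 in limma. The 95% interval was -2.26 to 3.16 for GPC3, where the F_FSB libraries were the most uneven. For GPC6 it was -0.45 to 0.81. The data thus allow a change of either sign inside these bounds.

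The summed level of the 10 genes was 332 ± 94.6 FPKM for F, 503 ± 19.1 for FSB and 410 ± 84.8 for F_FSB (SD, n = 3). The lowest FSB sum, 481 FPKM, was above the highest F sum, 413, and F_FSB ran from 336 to 502. The means that differed most between F and FSB were those of GPC3 (22.5 and 133 FPKM) and SDC2 (75.3 and 136). Neither gene passed in FSB against F (limma, adjusted p = 0.0923 and 0.0853), and GPC4, GPC6 and SDC4 had lower means in FSB. The higher sum is thus not a rise of all the genes. Glypicans held 55.9% ± 8.33 of the sum in F, 53.1% ± 7.17 in FSB and 52.5% ± 11.6 in F_FSB, so the division between the families differed by less than the spread of libraries. Within the glypicans the shares were different. GPC3 held 3.12% to 12.5% of the sum in F and 22.3% to 32.4% in FSB, and GPC4 held 26.8% to 33.3% in F and 13.8% to 15.0% in FSB. GPC6 held 12.1% to 13.4% in F and 3.37% to 4.91% in FSB. A share also falls when the sum grows, and the level of GPC4 itself did not pass (limma, adjusted p = 0.380). In F_FSB, GPC3 ran from 2.11% to 45.0% because of replicate 3. The most abundant gene was SDC2 in F replicate 1, FSB replicates 1 and 2 and F_FSB replicates 1 and 2, GPC4 in F replicates 2 and 3, and GPC3 in FSB replicate 3 and F_FSB replicate 3.

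**Figure D3:**
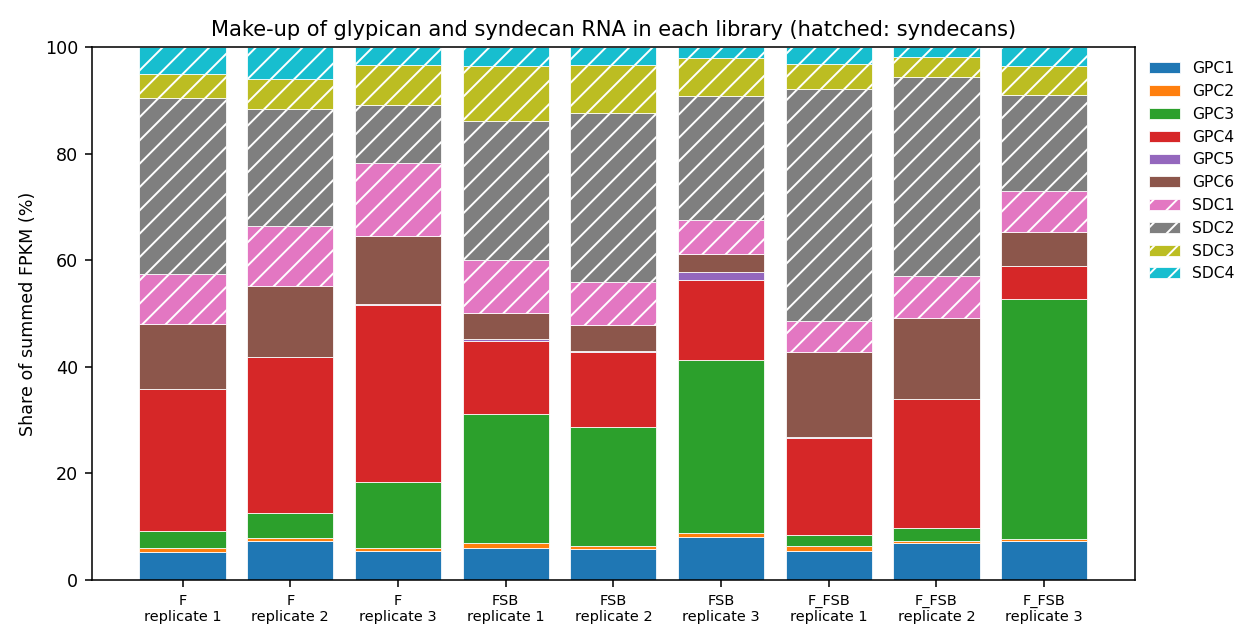
Share of each gene in the summed FPKM of the 10 glypican and syndecan genes in each library, in percent, with syndecans hatched. GPC3 takes 22.3% to 32.4% in FSB and 45.0% in F_FSB replicate 3, against 3.12% to 12.5% in F.

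Other proteoglycans that can carry heparan sulfate moved both ways. Of 7, 1 rose and 2 fell in FSB against F (median log2 change -0.20, against 0.14 for all genes), and 2 rose and 1 fell in F_FSB against FSB. Among all genes, 28.5% rose and 13.4% fell in the first comparison, and 13.7% rose and 28.2% fell in the second. COL18A1, the core of a basement membrane proteoglycan, was at 40.2, 57.3 and 58.4 FPKM for F, 159.5, 161 and 103 in FSB, and 64.6, 71.2 and 83.1 in F_FSB. Its log2 changes were 1.42 in FSB against F and -0.92 in F_FSB against FSB (limma, adjusted p = 0.00163 and 0.00957). CD44, a hyaluronan receptor with a heparan sulfate splice form, had means of 44.9 ± 14.9, 5.91 ± 4.69 and 48.2 ± 21.9 FPKM for F, FSB and F_FSB (SD, n = 3). It fell by 3.10 in FSB against F and rose by 3.16 in F_FSB (limma, adjusted p = 0.00934 and 0.00819). SRGN, the proteoglycan of secretory granules, fell by 2.65 in FSB against F and rose by 2.68 in F_FSB against FSB (limma, adjusted p = 0.00933 and 0.00843). It was below 1 FPKM in all FSB libraries, so it passed the filter only through F and F_FSB and had to differ. The basement membrane cores HSPG2 (perlecan) and AGRN (agrin) were at 50.4 and 37.6 FPKM in F and 42.9 and 30.3 in FSB and did not pass, and neither did TGFBR3 (betaglycan), a TGF-β co-receptor, at 5.17, 49.8 and 22.2 FPKM in F and 16.3, 16.3 and 22.3 in FSB. Without F replicate 1, 2 of the 7 rose in FSB.

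Of 11 genes that build the linker and chain, 10 were tested, and 1 rose and 2 fell in FSB against F (median -0.25), while 3 rose and 1 fell in F_FSB against FSB. Of all genes, 41.9% and 41.8% passed in these comparisons. EXTL3, which starts the heparan sulfate chain on the linker, rose from 20.4 ± 4.63 to 36.2 ± 4.99 FPKM (SD, n = 3; log2 change 0.81, limma, adjusted p = 0.00600). B4GALT7, a linker enzyme, fell by 0.65 and XYLT2, which adds the first sugar, by 0.37 (limma, adjusted p = 0.000852 and 0.0162). EXT1 and EXT2 are the polymerase subunits. EXT1 was at 76.0, 74.1 and 61.7 FPKM in F and 63.1, 66.6 and 54.4 in FSB (log2 change -0.20, limma, adjusted p = 0.227). EXT2 was at 44.2, 45.9 and 41.1 in F, 27.6, 29.5 and 33.7 in FSB, and 40.1, 42.5 and 66.8 in F_FSB. It missed the threshold in FSB against F (log2 change -0.52, limma, adjusted p = 0.05003) and rose by 0.67 in F_FSB against FSB (limma, adjusted p = 0.0197). That rise was lost without FSB replicate 1 or 2 (limma, adjusted p = 0.0686 and 0.0602) and came to 0.44 without F_FSB replicate 3, and the fall of XYLT2 without F replicate 2 (0.0545). In FSB against F, 1 of the genes fell without F replicate 2 and 4 without F_FSB replicate 3.

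Of 16 genes for sulfotransferases and the epimerase, 11 were tested, and 3 rose and 2 fell in FSB against F, while 3 rose and 3 fell in F_FSB against FSB. That is near the share of all genes that passed, 41.9% and 41.8%. NDST1, the main N-deacetylase and N-sulfotransferase, was at 34.4, 39.2 and 31.4 FPKM for F, 52.0, 47.8 and 57.4 in FSB, and 33.0, 28.8 and 35.1 in F_FSB. It rose by 0.57 in FSB against F and fell by 0.68 in F_FSB against FSB (limma, adjusted p = 0.00591 and 0.00260). Its paralog NDST2 moved the other way, from 9.09 ± 0.855 FPKM in F to 6.24 ± 0.324 in FSB and 8.60 ± 0.777 in F_FSB (SD, n = 3; limma, adjusted p = 0.00579 and 0.0108). GLCE, the epimerase that makes iduronic acid, fell by 0.74 (limma, adjusted p = 0.0337), a call lost without F replicate 3 or FSB replicate 1, 2 or 3 (0.0791, 0.0908, 0.0615 and 0.0880). HS3ST5, a rare 3-O-sulfotransferase, was at 0.0753 to 0.363 FPKM for F, 1.32 to 1.78 in FSB and 0.143 to 0.556 in F_FSB, and it passed the filter only through FSB (log2 change 1.13, limma, adjusted p = 0.00166). In FSB against F, 1 gene of this list fell without FSB replicate 1, 2 or 3, and 4 fell without F_FSB replicate 3. With scaling to the same sum, the rise of NDST1 in FSB and that of NDST2 in F_FSB were lost (limma, adjusted p = 0.0767 and 0.152). The other genes behind these counts, chosen after their values were seen, were HS2ST1, a 2-O-sulfotransferase, which rose by 0.38 and then fell by 0.41, and NDST3 and NDST4, which rose by 1.75 and 1.31 in F_FSB against FSB (limma, adjusted p = 0.0376, 0.0276, 0.0396 and 0.00939). The rise of HS2ST1 was lost when F replicate 1 or 2 or any FSB library was left out (0.0633 to 0.116), its fall without FSB replicate 2 or 3 or F_FSB replicate 1 or 2 (0.0595 to 0.0860), and both under the 3 scalings (0.0593 to 0.204). The call of NDST3 was lost without F replicate 2, any FSB library or F_FSB replicate 1 or 2 (0.0520 to 0.112), and that of NDST4 was not lost when any library was left out. NDST3 was at 5.66, 1.39 and 0.791 FPKM for F, 0.0460 to 0.0799 for FSB and 6.04, 2.60 and 0.801 for F_FSB. NDST3 and NDST4 were below 1 FPKM in all FSB libraries and passed the filter only through F and F_FSB.

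Of 7 genes that supply sugar and sulfate donors, 1 rose and 2 fell in FSB against F, where 28.5% of all genes rose and 13.4% fell. In F_FSB against FSB, 1 rose, where 13.7% of all genes rose and 28.2% fell. PAPSS2, which makes the sulfate donor, rose by 0.65, while its paralog PAPSS1 and the sulfate transporter SLC26A2 fell by 0.47 and 0.33 (limma, adjusted p = 0.0241, 0.0429 and 0.0209). These calls were fragile. Without FSB replicate 2 none of them passed (limma, adjusted p = 0.0793 for PAPSS2, 0.0884 for PAPSS1 and 0.0662 for SLC26A2). PAPSS2 was also lost without F replicate 2, F replicate 3 or FSB replicate 1 (0.0626 to 0.0748) and under the 3 scalings (0.0757 to 0.0953), PAPSS1 without F replicate 3 (where its change was -0.28), FSB replicate 1 or 3 or F_FSB replicate 1 or 2 (0.0523 to 0.106), and SLC26A2 without F replicate 1, F replicate 3 or FSB replicate 1 (0.0594 to 0.0699). With scaling to the same sum PAPSS1 and SLC26A2 missed the threshold in FSB against F as well (0.0643 and 0.0556). Without FSB replicate 1 or 3, 1 gene of this list fell in F_FSB against FSB, and only without F_FSB replicate 2 or 3 did 1 rise. With all libraries, the gene that rose in F_FSB against FSB was SLC35B2, a transporter of the sulfate donor chosen after its values were seen (log2 change 0.25, limma, adjusted p = 0.0367), and its call was lost when any library but F_FSB replicate 2 was left out (0.0524 to 0.106).

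The chondroitin and dermatan sulfate branch starts from the same linker. Of 15 genes tested out of 16, 1 rose, 6 fell and 8 did not pass in FSB against F (28.5% of all genes higher and 13.4% lower), and 8 rose and 1 fell in F_FSB against FSB (13.7% and 28.2%). The median was -0.25 and 0.47, where that of all genes was 0.14 and -0.13. DSEL, a dermatan sulfate epimerase, was at 31.6, 14.4 and 12.9 FPKM for F, 1.67, 1.77 and 1.47 in FSB, and 30.7, 26.8 and 21.6 in F_FSB. All FSB libraries were far below the others, with log2 changes of -2.86 and 3.36 (limma, adjusted p = 0.000397 and 0.000230). CSGALNACT1, which commits the linker to chondroitin, had means of 5.82 ± 2.39 FPKM for F, 0.690 ± 0.0368 for FSB and 9.39 ± 4.14 for F_FSB (SD, n = 3; limma, adjusted p = 0.00257 and 0.000857). It was below 1 FPKM in all FSB libraries and passed the filter only through F and F_FSB. Its paralog CSGALNACT2 and the chain elongation factor CHPF2 fell by 0.68 and 0.76 in FSB against F and rose by 0.81 and 0.86 in F_FSB against FSB (limma, adjusted p 0.000367 to 0.00511). The gene that rose in FSB against F, CHST7, and the gene that fell in F_FSB against FSB, CHST15, were chosen after their values were seen (log2 changes 0.52 and -0.98, limma, adjusted p = 0.0182 and 0.00810). CHST7 was below 1 FPKM in all F libraries and passed the filter only through FSB and F_FSB. The call of CHST7 was lost without F replicate 2, F replicate 3 or FSB replicate 1 (0.0508 to 0.0636). In F_FSB against FSB, 5 genes rose without F replicate 2 or FSB replicate 2 and 4 without FSB replicate 1.

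Among genes that act on finished chains, SULF1 rose after withdrawal. Of 13 genes for extracellular editing and shedding, 8 were tested in limma. In FSB against F, 0 were higher (0 at an unadjusted p below 0.05) and 1 was lower, against 28.5% and 13.4% of all genes. In F_FSB against FSB, 3 were higher, against 13.7% of all genes. SULF1, an extracellular sulfatase that trims 6-O-sulfates and alters FGF and WNT binding, was at 143, 15.1 and 10.1 FPKM for F, 16.7, 16.3 and 18.1 in FSB, and 165, 172 and 140.3 in F_FSB. F replicate 1 was at the F_FSB level and the other F libraries below the FSB libraries. SULF1 rose by 3.15 in F_FSB against FSB (SE 0.81, limma, adjusted p = 0.0158) and did not pass in F_FSB against F (log2 change 2.44, limma, adjusted p = 0.513). Without F replicate 1 it was higher in F_FSB than in F by 3.58 (limma, adjusted p = 0.000561). Its paralog SULF2 was at 46.1, 108 and 85.3 FPKM for F, 37.3, 32.5 and 28.3 in FSB, and 31.5, 31.3 and 141 in F_FSB, and passed in none of the comparisons. F_FSB replicate 3, the library with the highest GPC3, thus also had the highest SULF2. MMP14, a membrane metalloprotease that sheds syndecans, fell by 1.29 in FSB against F and rose by 1.18 in F_FSB (limma, adjusted p = 0.00297 and 0.00408). HPSE, which cleaves the chains, and NOTUM, a secreted enzyme that inactivates WNT proteins, stayed below 1 FPKM in all libraries and were not tested. The third gene that rose in F_FSB against FSB was FURIN, a proprotein convertase chosen after its values were seen (log2 change 0.48, limma, adjusted p = 0.0171). Its call was lost without F_FSB replicate 3 (0.0527) and with scaling to the same sum (0.162), and stood at the threshold without F_FSB replicate 1 (0.0500025). Without F_FSB replicate 3, 2 genes of this list fell in FSB against F.

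**Figure D4:**
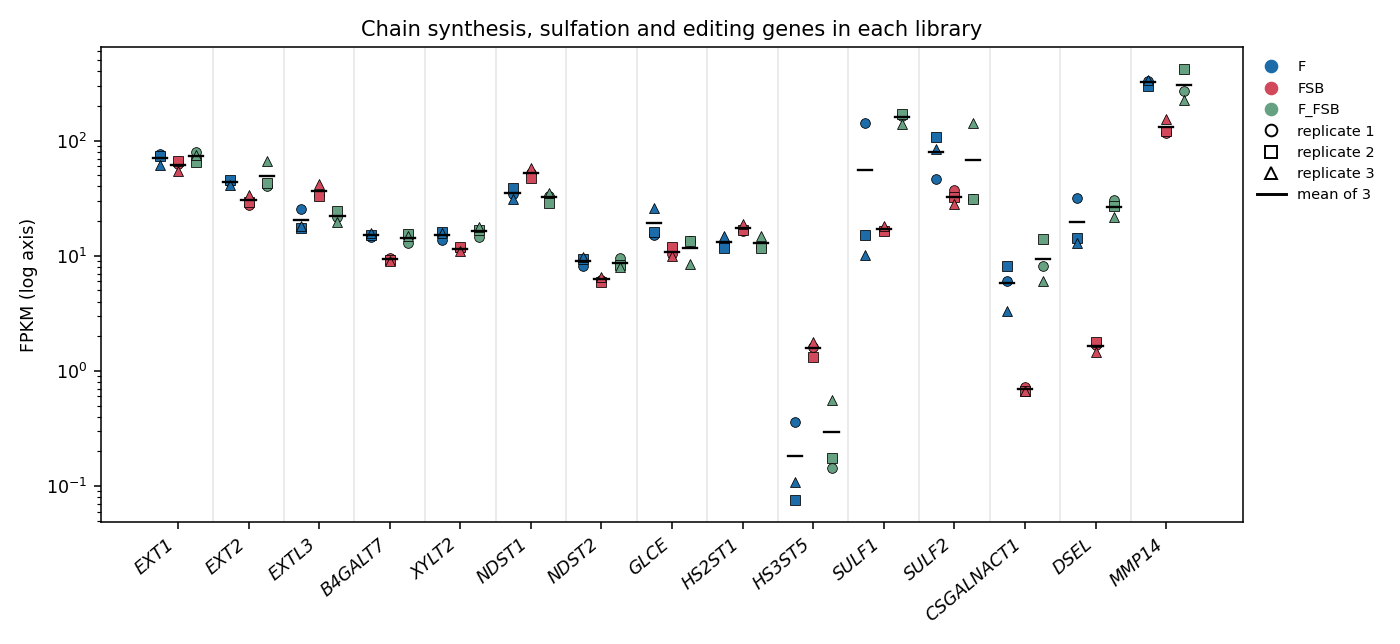
FPKM (log axis) of 15 genes for chain synthesis, sulfation, editing and shedding in each library. Colours are groups, marker shapes are replicate numbers and bars are means of 3. CSGALNACT1 and DSEL are lowest in FSB, and SULF1 in F replicate 1 lies with the F_FSB libraries.

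Of 8 genes for the cytoplasmic partners of syndecans, 4 rose and 0 fell in FSB against F, where 28.5% of all genes rose. In F_FSB against FSB 0 rose and 3 fell, where 28.2% of all genes fell (limma; at an unadjusted p below 0.05, 1 was lower in the first and 0 were higher in the second). The median log2 changes were 0.35 and -0.24, and those of all genes 0.14 and -0.13. CASK, a scaffold that binds the syndecan tail, was at 6.18, 5.74 and 6.44 FPKM for F, 9.50, 8.86 and 9.39 in FSB, and 6.03, 5.63 and 5.48 in F_FSB. It rose by 0.53 in FSB against F and fell by 0.61 in F_FSB against FSB (limma, adjusted p = 0.00142 and 0.000791). EZR (ezrin) and PRKCA, the kinase recruited by SDC4, rose by 0.90 and 0.71 in FSB against F (limma, adjusted p = 0.00199 and 0.00363). In F_FSB against FSB they fell by 0.47 and 0.50 (limma, adjusted p = 0.0299 and 0.0152). The fall of EZR was lost without FSB replicate 1 or 2 or F_FSB replicate 1 or 2 (0.0890, 0.0874, 0.0715 and 0.0791) and that of PRKCA without FSB replicate 1 (0.0504). Scaling by median ratios or by quantiles also ended the fall of EZR (0.135 and 0.0613) and of PRKCA (0.0649 and 0.0624), and scaling to the same sum that of EZR (0.0569). SDCBP (syntenin), the adaptor of all syndecan tails, rose by 0.39 (limma, adjusted p = 0.0318), which was lost without F replicate 2, F replicate 3 or FSB replicate 1, 2 or 3 (0.0678, 0.0986, 0.0658, 0.0892 and 0.0740) and under the 3 scalings (0.0862 to 0.153). Without F replicate 2 or F_FSB replicate 2, 1 partner fell in FSB against F, and without F replicate 3, 1 rose in F_FSB against FSB.

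Of 19 ligands that bind heparan sulfate, 15 were tested, with 4 higher and 6 lower in FSB against F and 8 higher and 3 lower in F_FSB against FSB. Of all genes, 28.5% were higher and 13.4% lower in the first comparison and 13.7% and 28.2% in the second. The median log2 changes of the ligands were -0.99 and 1.09, and those of all genes 0.14 and -0.13. HGF, a growth factor for motile cells, was at 55.7, 112 and 75.9 FPKM for F, 2.34, 2.30 and 0.745 in FSB, and 42.0, 172 and 128 in F_FSB (log2 changes -4.88 and 5.20, limma, adjusted p = 0.000434 and 0.000355). The chemokine CXCL12 fell by 3.23 in FSB against F and rose by 4.01 in F_FSB against FSB, and VEGFA fell by 1.10 and rose by 0.95 in the same comparisons (limma, adjusted p 0.000321 to 0.00114). HBEGF, an EGF receptor ligand, moved the other way, from 1.99 ± 1.37 FPKM in F to 25.7 ± 4.67 in FSB and 2.22 ± 1.26 in F_FSB (SD, n = 3; limma, adjusted p = 0.000635 and 0.000774). The other ligands that rose in FSB against F, chosen after their values were seen, were MDK, BMP2 and VTN, with log2 changes of 1.00, 0.55 and 1.70 (limma, adjusted p = 0.0217, 0.0467 and 0.000924), and BMP2 and VTN fell in F_FSB against FSB by 1.08 and 1.57. VTN passed the filter only through FSB. The rise of MDK was lost without F replicate 2, F replicate 3 or any FSB library (0.0525 to 0.0698), and that of BMP2 when any F_FSB library, F replicate 1, F replicate 3 or FSB replicate 1 or 2 was left out (0.0583 to 0.145). With median ratios both missed the threshold (0.0537 and 0.129). Without F replicate 3 or FSB replicate 1 or 2, 2 ligands rose in FSB against F, and without F_FSB replicate 1, 5 rose in F_FSB against FSB. In F_FSB against F, none of the 81 genes tested from these 8 lists passed in limma. At an unadjusted p below 0.05, 7 of them were higher and 5 lower, where 1195 of all 13216 genes were below it.

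The genes closest in profile to GPC3 and SDC3, the glypican and the syndecan with the widest range of group means, were found by the root mean square difference of log2(FPKM + 1), centred on each gene's mean, over the 9 libraries. For GPC3 they were the homeobox gene MSX1 (0.765), the lysophospholipase ENPP2 (0.983) and the guidance ligand SLIT3 (1.01), where GPC3's own root mean square about its mean was 1.83. MSX1 was at 0.188, 2.18 and 12.2 FPKM for F, 13.1, 11.99 and 8.85 in FSB, and 0.150, 0.129 and 13.4 in F_FSB. Like GPC3, MSX1 was high in F_FSB replicate 3 and low in the other F_FSB libraries, and F replicate 3 was the highest F library for both. SLIT3 was at 67.1 FPKM in F_FSB replicate 3 and at 11.9 and 4.92 in the others. For SDC3 the closest were the stress-response factor ATF3 (0.220), CDC42EP4 (0.234) and the pseudogene HSP90AA6P (0.246), against 0.662 for SDC3 itself. All these genes were picked for their likeness to GPC3 or SDC3 over these same libraries. Their agreement, also in F_FSB replicate 3, was therefore set by the choice and is no support for a shared control. These are descriptions of 9 libraries that share groups.

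**Figure D5:**
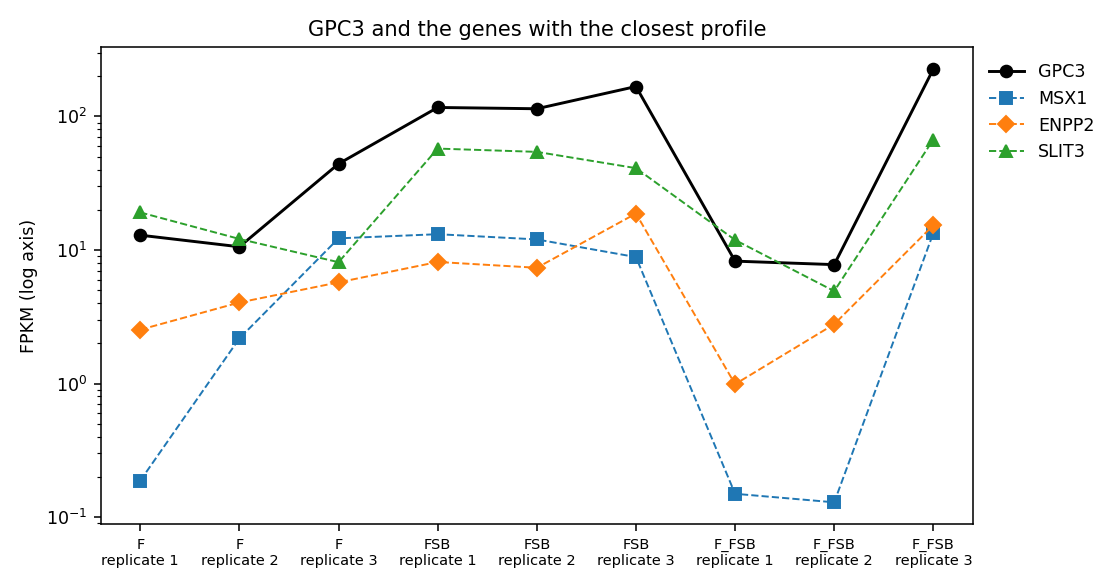
FPKM (log axis) of GPC3 and of the 3 genes with the closest profile in the 9 libraries, in the order of the groups. Lines join the points of a gene only to help the eye, since replicates have no order. GPC3, MSX1, ENPP2 and SLIT3 are all higher in F_FSB replicate 3 than in F_FSB replicates 1 and 2. The last 3 genes were picked for likeness to GPC3 over these libraries, so this likeness was set by the choice.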

How the data were processed

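Total RNA of 9 H9-derived cultures was sequenced from strand-specific SureSelect libraries, per the labels' protocols. The authors deposited a table of FPKM for each library, normalized within that library. Per the submitters' processing notes, the tools were Cufflinks 2.1.1 and TopHat2 2.0.12, and the build was GRCh37. Annotation, options and use of strand: not given in the sources used here. Starts in the tables count from 0 and are printed 1-based.

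Loci that Cufflinks did not mark as OK in every library (95) and genes with fewer than 3 libraries at an FPKM of 1 or more were left out, which left 13216 genes. They were tested with limma 3.58.1 in R 4.3.3 on log2(FPKM + 1), in 1 fit of the 3 group means to all 9 libraries, with eBayes and its trend option. The two-sided p-values were adjusted by Benjamini-Hochberg over all 13216 genes, with a threshold of 0.05. Such changes understate those of low genes. The test was checked on simulated data. Tables were joined in pandas 2.3.3 (Python 3.11.15) and figures drawn in matplotlib 3.10.9. The alternatives were a pseudocount of 0.1, no filter, 3 scalings, a fit of only the groups compared, a replicate block, leaving out each library, and, chosen after seeing the data, averaging FSB replicates 1 and 2.

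The tables give no fragment counts, so the precision of single values is known only from Cufflinks' intervals. The deposited FPKM lay outside its own interval in 15 of 90 member values, all of GPC4 (7 libraries) and SDC2 (8). For the other 8 genes the intervals reached 2.77% to 100% of the value to each side. Depth was estimated only in relative terms.

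The members and the gene lists were chosen with earlier results of these data known. From each list the text names the up to 4 genes with the smallest adjusted p in FSB against F past the threshold, plus EXT1, EXT2, EXTL3, NDST1, SULF1, SULF2, HPSE, NOTUM, SDCBP, HSPG2, AGRN and TGFBR3. It also names the 3 genes closest in profile to the glypican and the syndecan with the widest range of group means. LIN28A, NGFR and COL1A1, and the list genes marked so in the text, were chosen after their values were seen.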

Additional observations from a re-analysis of the deposited data

How the results depend on the processing

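Of the 30 results for members (10 genes in 3 comparisons) under 17 alternatives each, direction and side of the threshold stayed the same in 135 cases in FSB against F, 152 in F_FSB against FSB and 159 in F_FSB against F. The call was lost in 23, 9 and 0 cases and gained in 8, 5 and 0. Every sign that turned belonged to a member that did not pass with either sign. Scaling by median ratios gave -0.0072 for SDC1 in FSB against F and 0.035 for SDC2 in F_FSB against FSB. For SDC3 in F_FSB against F, quantile normalization gave -0.0048 and scaling to the same sum -0.12. Leaving out each library in turn gave -0.11 to 0.34 for SDC1, -0.20 to 0.20 for SDC4 and -1.42 to 0.43 for SULF1 in FSB against F. In F_FSB against FSB it gave -0.33 to 0.11 for SDC2 and -0.58 to 0.091 for GPC4. In F_FSB against F it gave -0.25 to 0.28 for SDC3, -0.072 to 0.095 for GPC5, -0.13 to 0.37 for GPC2, -0.025 to 0.45 for GPC6 and -1.10 to 1.24 for GPC3. The number of members higher in FSB against F was 0 with no filter on low values, 5 when only the groups compared were fitted, 5 with the replicate block and 0 to 5 when a library was left out. The number lower was 0 with no filter, 0 with FSB replicates 1 and 2 averaged and 0 to 1 when a library was left out. In F_FSB against FSB the number lower was 0 with no filter, 1 with the averaged replicates and 1 to 3 when a library was left out. The cause was not tested, except that the fit with no filter adjusts over more genes (25498). With a library left out, a group of 2 shares the spread of the others. Most same-numbered libraries did not deviate together: correlations over genes were 0.067, 0.017 and -0.051 for FSB with F, -0.013, -0.022 and -0.136 for F_FSB with FSB and 0.292, -0.027 and 0.099 for F_FSB with F. The exception was F_FSB replicate 1 with F replicate 1 (0.292), where its correlations with F replicates 2 and 3 were -0.107 and -0.230. Of the 9, 2 correlated best with their own number. The main fit treats the libraries as unpaired, and the labels do not say whether they are paired. With the replicate block, GPC2 passed in FSB against F and in F_FSB against FSB (limma, adjusted p = 0.0135 and 0.0202) and GPC3 in FSB against F (0.0385). Over all genes in FSB against F, 2452 were higher and 2416 lower with median ratios, 2637 and 2331 with quantiles and 2286 and 1424 with the same sum, against 3763 and 1773.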
